A study of Rattus norvegicus with 6 samples.

Results

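Circular RNAs (circRNAs) were compared with the linear RNA of the same gene for 10 host genes in rat lung, namely Arl15, Spidr, Slc16a10, Ssbp2, Rbms2, Mettl9, Mef2a, Hipk2, App and Tmem41b. The host genes were picked from the back-splice reads of their circRNAs, with the values of model and control rats in view, so the group differences in those reads are a description and were not tested. They are 10 of the 2881 genes that hosted any circRNA, and they carried 31 of the 5216 circRNAs. With at least 10 back-splice reads each over the 6 libraries, they also belong to the 315 host genes that passed this minimum, and the other 305 served for comparison.

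A circRNA arises when the spliceosome joins the end of an exon to the start of the same or an earlier exon, which is called back-splicing. The product has no free ends, resists exonucleases and is long lived, while the same pre-mRNA can instead be spliced into a linear transcript. Complementary repeats in the flanking introns and RNA-binding proteins that bridge these introns are known to favor back-splicing. Output of circles from a gene therefore need not follow its linear RNA.

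Lungs came from Sprague-Dawley rats of 7 weeks of age at the start, and 1 library was made per rat from total RNA depleted of rRNA. The PF model group (n = 3) had received a single intratracheal dose of bleomycin at 7 mg/kg, a drug that injures the lung and leads to fibrosis, and the control group (n = 3) had received saline. Tissue was taken on day 28. All samples were bulk lung tissue, so fewer cells of a type and less RNA per cell cannot be told apart.

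Between 2037 and 2964 back-splice reads were found per library, and the 10 host genes took between 2.24 and 3.07% of them. Each of the 10 genes yielded at most 21 reads in any library, and a count of 0 allows up to 3 reads. The lung epithelium markers summed to between 10462 and 12081 FPKM in control rats and between 9863 and 12873 FPKM in PF model rats, and the 5 of the 6 that were found were all detected. Of the 6 fibroblast and matrix markers, 1 (Col3a1) had an unadjusted p of at most 0.05 and none an adjusted one, and their sum lay between 417.8 and 502.9 FPKM in control rats and between 501.7 and 618.6 FPKM in PF model rats. In Model 3 the 4 heart muscle markers summed to 25.8 FPKM, against 6.37 to 11.3 FPKM in the other 5 libraries. The part of these markers in the values below was not tested.

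Most of these genes made 1 main circle. In 8 of the 10 host genes the circRNA with the most reads held over 80% of the back-splice reads of the gene, and the lowest share, 47.8%, belonged to App. Of the 31 circRNAs, 22 shared a back-splice site with another circRNA of the same gene, 8 rested on 1 read, 15 were seen in 1 library and 4 were seen in all 6. The 31 include 1 listed as an intronic circle, ciRNA219 of App. The leading circles spanned a median of 3 exons, as did those of the other 305 host genes. The intron upstream of the leading circle had a median length of 39956.5 bases, against 12308 bases in the other host genes, and the downstream intron 25040.5 against 10060.5 bases. Flanking introns ranged widely within the 10 genes, from 1742 bases upstream of the Tmem41b circle to 132769 bases upstream of the Arl15 circle. Over all circRNAs the upstream median was 6997 bases and the downstream median 5514 bases. Lengths of introns were not used in the choice of the genes, but back-splice reads were, with a median of 41 reads against 16. The sets were not matched for reads, and the lengths are given without a test.

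The linear RNA of the same genes was read from assembled transcripts. Gene FPKM (fragments per kilobase of transcript, scaled by a total of the library) was the sum over all rows that carry the gene name. The 121 rows of the 10 genes included 16 that match an annotated transcript, 35 that share a splice junction with one, and 66 that lie within an intron, and 36 rows lay on the opposite strand. Intronic rows made up 81.2% of the FPKM of Arl15, 70.0% of that of Ssbp2 and 69.1% of that of Slc16a10, but none of that of Rbms2 or Tmem41b. Values are therefore also given over the annotated and junction-sharing rows alone, named exonic rows here, a choice made after the data were seen. Whether the coverage was counted by strand is not given in the sources used here, and reads from within a circle add to the coverage of its exons.

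**Figure D1:**
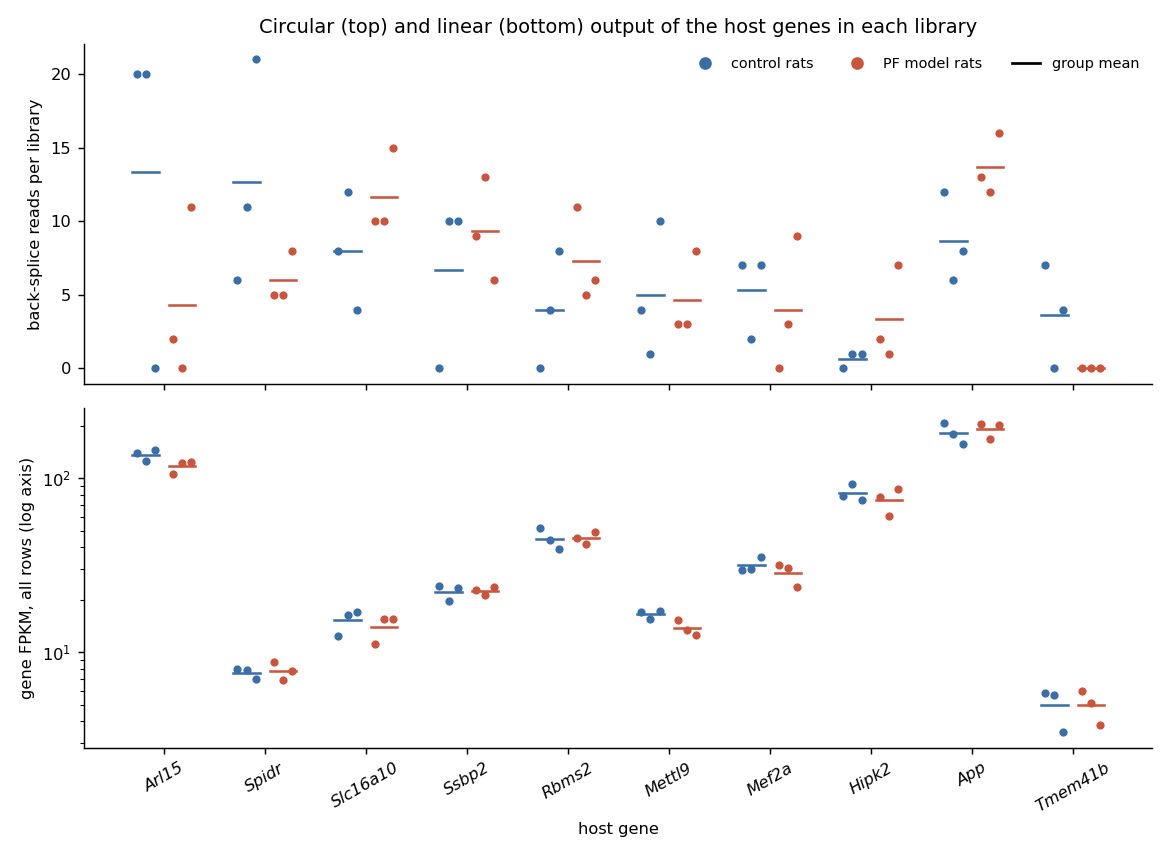
Each point is 1 library, with control rats in blue and PF model rats in red, and lines mark group means. The upper panel gives back-splice reads and the lower panel gene FPKM over all rows on a log axis. Reads of Arl15 ran from 0 to 20, while its FPKM stayed between 105.5 and 145.1.

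The first question was how much circular RNA each gene made for its linear RNA. The ratio used is back-splice reads per 100 of linear coverage in the same library, so it needs no library size. Linear coverage is the sum of the per-base coverage of the gene's rows. Rows at different places in the gene add to this sum, so it depends on the rows assembled and does not count linear molecules. Pooled over the 6 libraries, Spidr had the highest value with 17.4, followed by Slc16a10 with 9.74, Tmem41b with 5.35, Ssbp2 with 5.14 and Mettl9 with 4.60. Lower values were found for Mef2a with 2.23, Rbms2 with 1.81, Arl15 with 1.01, App with 0.867 and Hipk2 with 0.370. Spidr ranked 8th among the 315 host genes, and Hipk2 ranked 307th. The median was 3.41 in the 10 genes and 2.04 in the other 305, but the reads in the ratio are those that chose the genes, with a median of 41 reads against 16, so nothing is read from this difference.

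Over exonic rows the order at the top changed. Slc16a10 reached 46.2 and Spidr 41.1 back-splice reads per 100 of coverage, ranks 5 and 6 of 315, and Ssbp2 reached 17.1, rank 20. The other 7 genes lay between 0.604 (Hipk2) and 5.50 (Mettl9). Across the 10 genes the exonic linear level spanned 56.1-fold, from 3.09 FPKM in Slc16a10 to 173.7 FPKM in App, while the mean scaled back-splice reads spanned 6.24-fold. The genes were picked from these reads, which can narrow their span, so nothing is read from this contrast. In the other 305 host genes reads ran from 10 to 379 and exonic FPKM from 0.531 to 340.1. App, with the third highest exonic FPKM of all 315 host genes, and Slc16a10, with nearly the lowest at rank 304, had 67 and 59 back-splice reads. The 5 other host genes with the most back-splice reads were Nf1x with 379, Ttc3 with 230, Arid1a with 187, Prex2 with 147 and Mkln1 with 134. Their exonic ratios lay between 10.2 for Prex2 and 22.3 for Nf1x, below those of Slc16a10 and Spidr, but the highest among the other 305 host genes was 92.1. The ratio holds the reads that chose the 10 genes, so nothing is read from their ranks, over all rows or exonic rows.

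**Figure D2:**
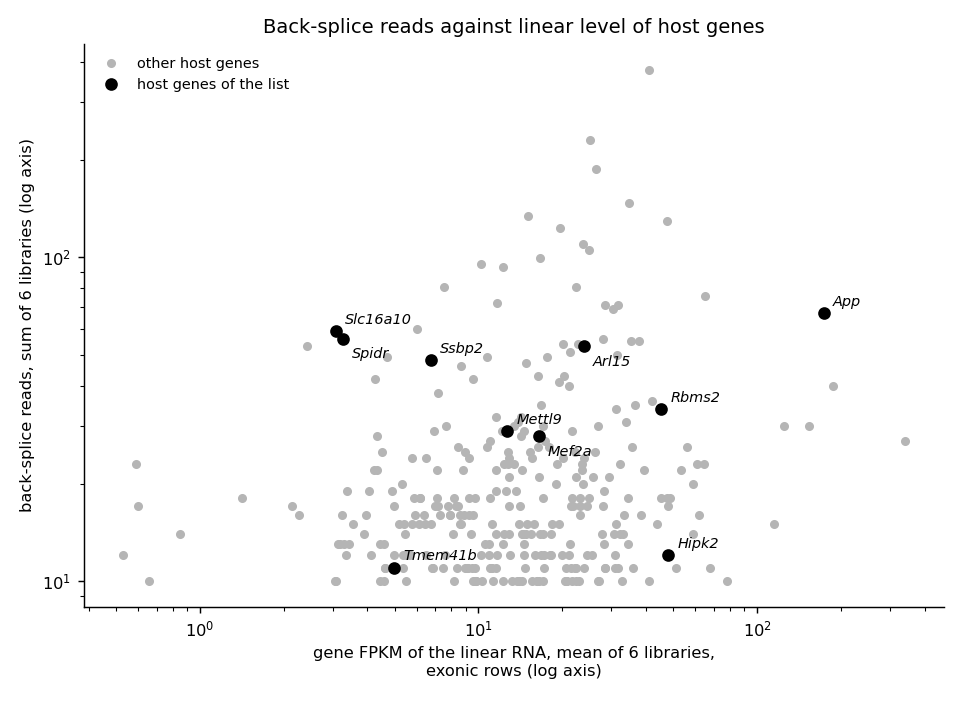
The sum of back-splice reads over 6 libraries is plotted against the mean exonic FPKM for 315 host genes, both on log axes, with the 10 genes in black. Slc16a10 and Spidr stand near 3 FPKM with 59 and 56 reads, while Hipk2 has 12 reads at 48.0 FPKM.

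Among the genes whose proteins act in the nucleus or on RNA, Spidr, a scaffold of homologous recombination repair, gave its reads almost wholly from circRNA126, 2 exons at 89175425 to 89180448 on chromosome 11 (minus strand; the genome build is not given in the sources used here). Back-splice reads of Spidr were 6, 11 and 21 in Control 1, 2 and 3 and 5, 5 and 8 in Model 1, 2 and 3. The highest count was that of Control 3, and the groups overlapped. Scaled to the library totals, the mean was 12.5 ± 6.94 (SD, n = 3) in control and 6.0 ± 1.76 in PF model rats, a log2 ratio of -1.06, which was -1.40 without Control 1 and -0.57 without Control 3. Linear FPKM of Spidr was 7.99, 7.87 and 7.04 in control and 8.81, 6.88 and 7.83 in PF model rats. The linear log2 fold change was 0.03 ± 0.11 (SE), with a limma adjusted p of 0.992. The ratio was 10.8, 21.9 and 40.7 per 100 of coverage in control and 7.81, 11 and 14.8 in PF model rats.

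Ssbp2 encodes a single-stranded DNA-binding protein that acts as a transcription cofactor. Its circRNA1852 covers 3 exons at 20507150 to 20531444 on chromosome 2 and held 46 of the 48 reads of the gene. Reads were 0, 10 and 10 in control and 9, 13 and 6 in PF model rats, so Control 1 alone lacked the circle. Linear FPKM was 24.0, 19.6 and 23.3 in control and 22.8, 21.4 and 23.6 in PF model rats, so Control 1, without a circular read, was not low in linear RNA. The linear log2 fold change was 0.02 ± 0.10 (SE), with a limma adjusted p of 0.993. The log2 ratio of the mean scaled reads was 0.48, and it ran from -0.11 without Control 1 to 0.99 without Control 2.

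Mef2a is a MADS-box transcription factor of muscle and other tissues. Its reads were 7, 2 and 7 in control and 0, 3 and 9 in PF model rats, and 25 of the 28 came from circRNA1041 with 3 exons. In Control 2, however, both reads belonged to circRNA1926, which shares its upstream site and extends 1 exon further. Linear FPKM ran from 29.8 to 35.4 in control and from 23.8 to 31.9 in PF model rats, with a log2 fold change of -0.15 ± 0.13 (SE) and a limma adjusted p of 0.933. Model 3 combined the most circular reads of the gene with its lowest linear FPKM. It was the library with the most heart muscle markers and also with the most back-splice reads in all. The log2 ratio of the mean scaled reads was -0.37, and it was -1.74 without Model 3 and 0.21 without Model 1.

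Hipk2, a nuclear serine/threonine kinase that phosphorylates p53, gave few circles for its linear level. Reads were 0, 1 and 1 in control and 2, 1 and 7 in PF model rats, and 10 of the 12 came from circRNA1765, a single exon of 1084 bases. The mean of scaled reads was 0.674 ± 0.588 (SD, n = 3) in control and 3.32 ± 3.22 in PF model rats, a log2 ratio of 2.30. Model 3 had 7 of the 12 reads, and without it the log2 ratio was 1.13, against 1.71 to 2.82 without any other rat. Model 3 was the library with the most heart muscle markers and also with the most back-splice reads in all (2964). Scaled by the back-splice total of each library, the log2 ratio was 2.14. Linear FPKM was 78.9, 92.2 and 74.7 in control and 77.9, 60.5 and 86.2 in PF model rats, with a log2 fold change of -0.14 ± 0.15 (SE) and a limma adjusted p of 0.942.

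Rbms2 encodes an RNA-binding protein that recognizes single-stranded AU-rich sequence. All of its linear FPKM came from exonic rows. Reads were 0, 4 and 8 in control and 11, 5 and 6 in PF model rats, with 32 of 34 from circRNA1615, a compact circle of 3 exons over 635 bases. Linear FPKM was 51.8, 44.2 and 39.0 in control and 45.2, 42.1 and 49.3 in PF model rats. In control rats the library with the highest linear FPKM had no circular read and that with the lowest had 8. The linear log2 fold change was 0.02 ± 0.12 (SE), with a limma adjusted p of 0.995.

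Mettl9, a methyltransferase of protein histidine residues, had a single circRNA, circRNA1080, found in all 6 libraries. Reads were 4, 1 and 10 in control and 3, 3 and 8 in PF model rats, and the mean scaled reads of the groups differed by a log2 ratio of -0.05, which was -0.69 without Model 3 and 0.89 without Control 3. Linear FPKM was 17.0, 15.5 and 17.3 in control and 15.3, 13.4 and 12.6 in PF model rats, so every PF model value lay below every control value. The log2 fold change was -0.26 ± 0.10 (SE), with an unadjusted p of 0.0355 and an adjusted p of 0.933 in limma. Leaving out Control 1, Control 3, Model 2 or Model 3 raised the unadjusted p to between 0.0876 and 0.0999. With FPKM rescaled to the same total in each library, the log2 fold change was -0.18 (unadjusted p 0.186, limma). By a length-weighted mean it was -0.11 (unadjusted p 0.253, limma).

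Among the genes of membranes and transport, Arl15, an ARF-like small GTPase, showed the widest spread of circular reads. They were 20, 20 and 0 in control and 2, 0 and 11 in PF model rats. The index of dispersion (variance over mean of the scaled reads, near 1 for pure counting error) was 10.9, the highest of all 315 host genes. These reads were in view when the genes were chosen, so nothing is read from this rank. Scaled means were 13.8 ± 12 (SD, n = 3) in control and 4.30 ± 5.89 in PF model rats, a log2 ratio of -1.68. Leaving out 1 rat moved it to between -3.86 (without Model 3) and -1.10 (without Model 2). The linear RNA did not show this spread. FPKM over all rows was 139.2, 125.3 and 145.1 in control and 105.5, 121.5 and 124.4 in PF model rats, and Control 3, without a circular read, had the highest of these sums, though not the highest over exonic rows.

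The circles of Arl15 also differed between libraries. CircRNA917 joins 2 exons at 45801786 to 45813991 on chromosome 2 and gave 20, 18 and 0 reads in control rats and none in PF model rats. CircRNA3298 starts at the same site, runs to 45859187 with 3 exons, and gave 2, 0 and 7 reads in PF model rats and none in control rats. CircRNA1862 consists of the last of these exons alone and gave 2 reads in Control 2 and 4 in Model 3. Set against a floor of 3 reads over a group, the reads of circRNA917 in control rats were 12.7-fold the floor. Those of circRNA3298 in PF model rats were 3.00-fold the floor. The floor covers the counting error of 0 reads, but not that of the other group or the spread between rats. These values rest on few libraries, since circRNA917 would stand at 6.0-fold without Control 1 and at 6.67-fold without Control 2. CircRNA3298, with 2 reads left without Model 3, would lie below the floor. No library held both circRNA917 and circRNA3298, and 2 libraries, Control 3 and Model 2, held neither.

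**Figure D3:**
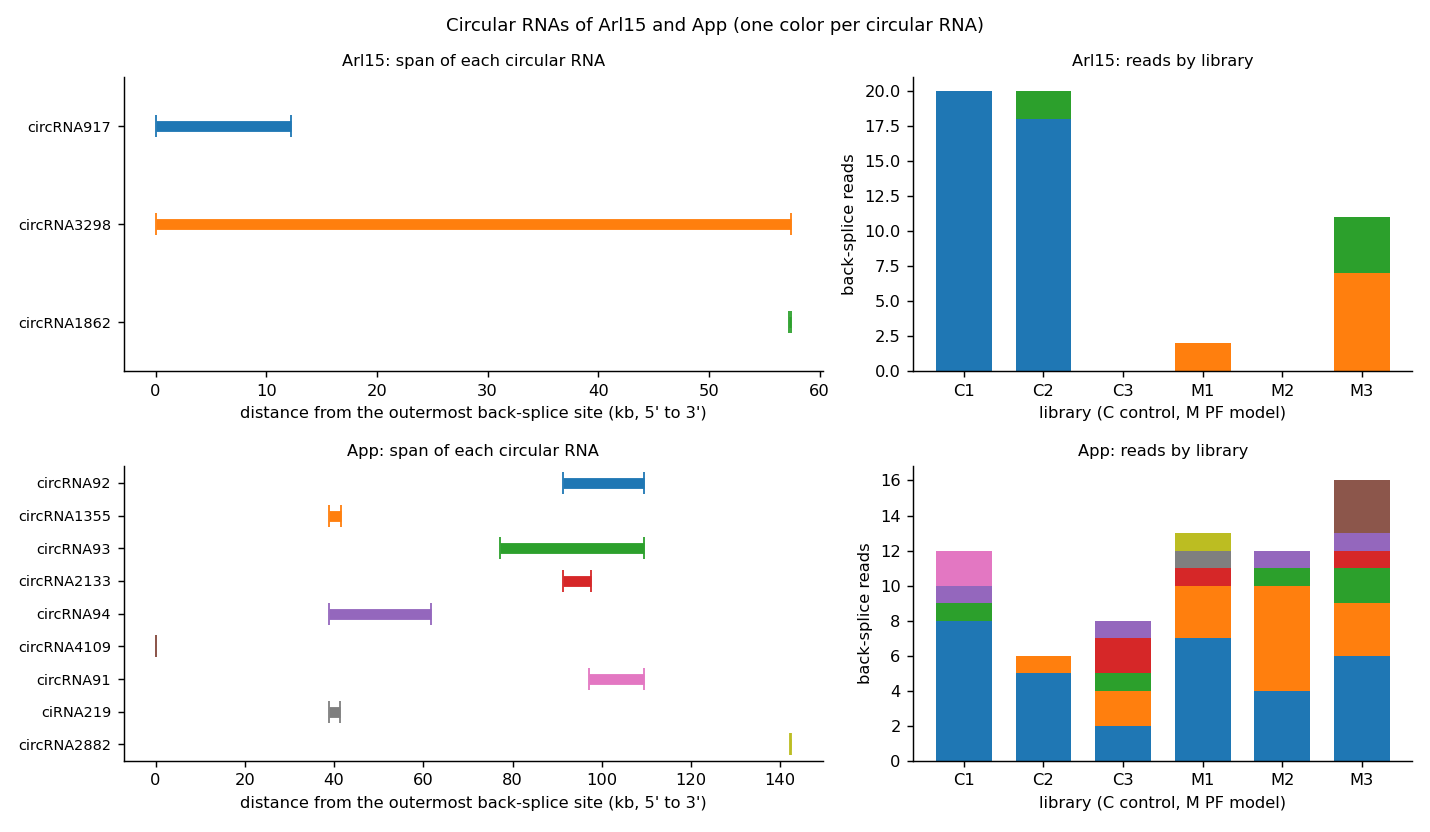
Left panels show the span of each circRNA of Arl15 and App as the distance in kb from the outermost back-splice site, and right panels its back-splice reads in each library, stacked in the same colors. CircRNA917 fills the bars of Control 1 and most of Control 2, and circRNA3298 appears in Model 1 and Model 3.

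The linear RNA of Arl15 was lower in PF model rats without overlap of the groups. The log2 fold change was -0.22 ± 0.10 (SE) over all rows, with an unadjusted p of 0.0704 and an adjusted p of 0.933 in limma. Over exonic rows FPKM was 28.5, 25.1 and 25.9 in control and 19.1, 23.5 and 21.0 in PF model rats, with a log2 fold change of -0.31 ± 0.10 (SE), an unadjusted p of 0.0180 and an adjusted p of 0.950. With FPKM over all rows rescaled to the same total in each library, the log2 fold change was -0.14 (unadjusted p 0.373, limma). By a length-weighted mean it was -0.13 (unadjusted p 0.217, limma). Over annotated transcripts alone it was -0.56 (unadjusted p 0.00821, adjusted p 0.972, limma).

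Slc16a10 encodes a transporter of aromatic amino acids. Its circRNA472 joins 2 exons at 45189472 to 45193661 on chromosome 20, was seen in all 6 libraries and held 54 of 59 reads. Reads of the gene were 8, 12 and 4 in control and 10, 10 and 15 in PF model rats. Exonic FPKM was low throughout, at 2.78, 3.61 and 3.12 in control and 2.71, 3.10 and 3.25 in PF model rats. The exonic ratio was 41.4, 52.1 and 17.5 per 100 of coverage in control and 50.7, 48.9 and 67.0 in PF model rats, with Control 3 the lowest. The log2 fold change of FPKM over all rows was -0.12 ± 0.17 (SE), with a limma adjusted p of 0.954.

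App, the amyloid precursor protein, combined the highest linear level of the 10 genes with the most circRNAs, 9 in all. Of these, 8 were exonic and 1, ciRNA219 with 1 read, was listed as an intronic circle. Reads were 12, 6 and 8 in control and 13, 12 and 16 in PF model rats. After scaling, 11.9, 6.48 and 7.54 in control stood against 12.3, 12.6 and 16.0 in PF model rats, so the groups did not overlap, though the unscaled 12 of Control 1 equalled that of Model 2. CircRNA92, with 5 exons, gave 15 reads in control and 17 in PF model rats. CircRNA1355, with 2 exons, gave 0, 1 and 2 in control and 3, 6 and 3 in PF model rats. For circRNA92 alone the log2 ratio of the mean ratio to linear coverage was 0.11, against 0.60 for all circles of the gene. The spread of App was close to counting error, with an index of dispersion of 1.12.

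Linear FPKM of App was 206.8, 178.8 and 157.2 in control and 205.3, 167.1 and 202.5 in PF model rats, with a log2 fold change of 0.09 ± 0.14 (SE) and a limma adjusted p of 0.961. The ratio was 0.834, 0.525 and 0.694 per 100 of coverage in control and 0.871, 1.09 and 1.15 in PF model rats. Control 3 differed in isoforms, with 50.5 FPKM of MSTRG.7352.3 and 89.5 FPKM of ENSRNOT00000048854. In the other 5 libraries the first lay between 125.5 and 167.2 FPKM and the second between 2.80 and 16.8 FPKM.

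Tmem41b, a protein of the endoplasmic reticulum that moves lipids between membrane leaflets and is needed for autophagy, had a single circle, circRNA1065, of 4 exons. Its reads were 7, 0 and 4 in control and 0, 0 and 0 in PF model rats. Over the group, the reads of control rats were 3.67-fold a floor of 3 reads, and 1.33-fold without Control 1 or 2.33-fold without Control 3. Linear FPKM was 5.82, 5.67 and 3.46 in control and 5.97, 5.14 and 3.82 in PF model rats, a log2 fold change of 0.01 ± 0.22 (SE) with a limma adjusted p of 1.0. The gene ranked 301st of 315 in linear FPKM, and Control 2, with 5.67 FPKM, had no circular read.

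**Figure D4:**
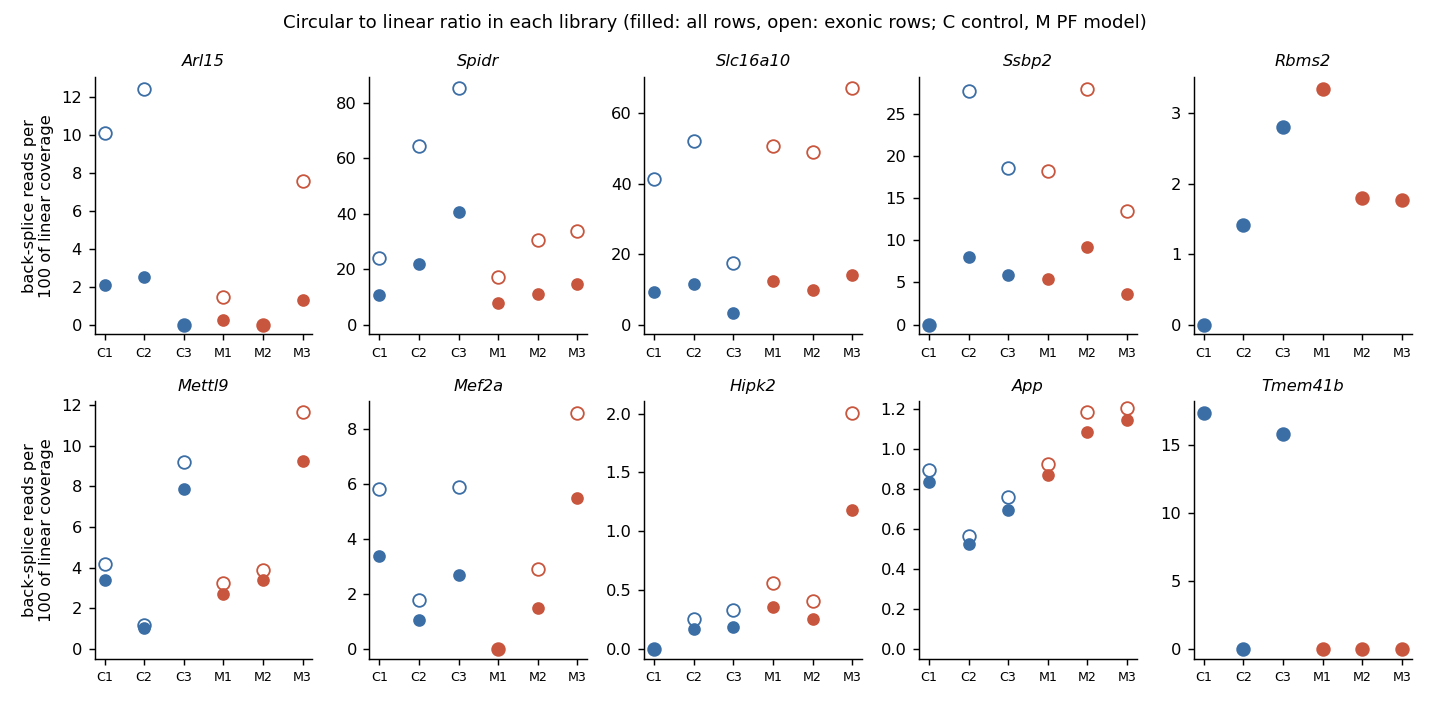
Back-splice reads per 100 of linear coverage are shown for each library (C1 to C3 control, M1 to M3 PF model), with filled points for all rows and open points for exonic rows, each panel on its own axis from 0. App is the gene with the narrowest spread, from 0.525 to 1.15 over all rows, and Arl15, Ssbp2, Rbms2, Mef2a, Hipk2 and Tmem41b each touch 0.

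Set side by side, the log2 ratios of group means ran from -1.68 to 2.30 for the circular reads of the 9 genes with reads in both groups, and from -0.27 to 0.08 for the linear FPKM of all 10. Counting error is far larger for the former, which rest on 12 to 67 reads a gene. The scaled mean of back-splice reads was higher in PF model rats for 5 genes, as for 145 of all 315 host genes, and lower for 5. It was at least 2-fold higher for 1 (Hipk2; 14.0% of all 315 host genes) and at least 2-fold lower for 3 (Arl15, Spidr and Tmem41b; 15.9%). The groups did not overlap in scaled reads for 1 gene (App), against 8.57% of all host genes, and in the ratio for 2 (App and Hipk2, both higher in PF model rats), against 10.5%. Since the reads chose the genes, nothing is read from these counts. Circular and linear log2 ratios of means differed in sign for Spidr (-1.06 and 0.04), Slc16a10 (0.50 and -0.12) and Hipk2 (2.30 and -0.13). These linear ratios are small, and the linear fold change of each gene changed sign under some other settings. The share over all host genes was not counted, so nothing is read from these signs either.

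The linear FPKM of the 10 genes showed no call. None had an adjusted p below 0.05 in limma, where 0.0102% of the 19645 genes tested did, and 1 (Mettl9) had an unadjusted p of at most 0.05, where 4.91% did. None passed the thresholds of the study (an unadjusted p up to 0.05 with an at least 2-fold change), which 1.52% of genes passed. The groups did not overlap for 2 genes (Arl15 and Mettl9), against 10.7% of all genes. Log2 fold changes lay between -0.26 and 0.09, with a median of -0.06 against -0.01 over all genes tested.

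**Figure D5:**
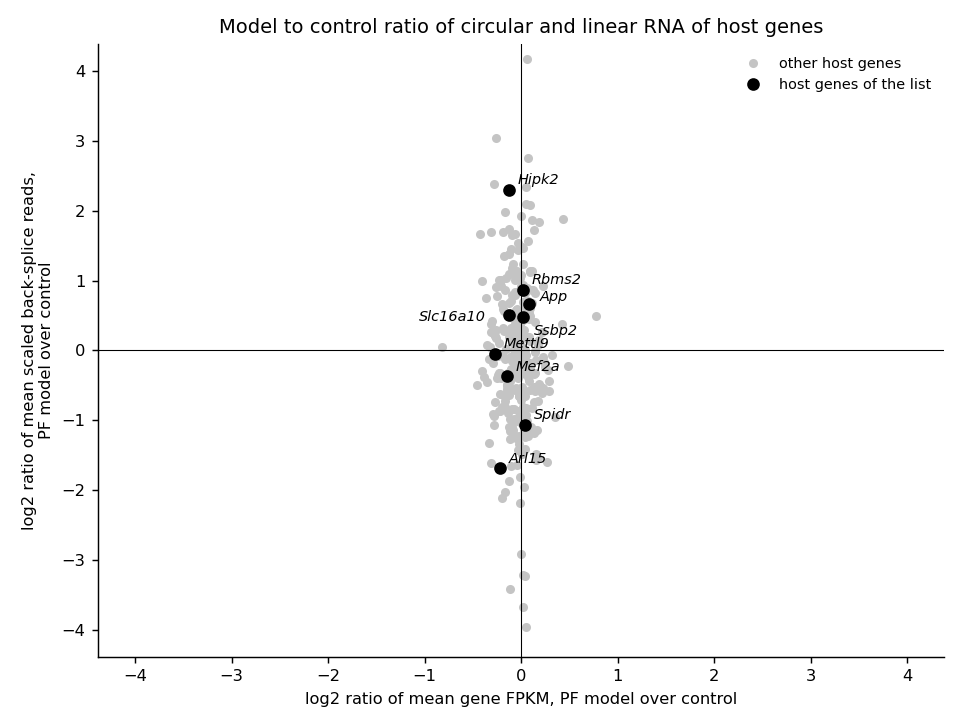
The log2 ratio (PF model over control) of mean scaled back-splice reads is plotted against that of mean gene FPKM for 9 of the 10 genes in black and 303 other host genes in gray. Tmem41b and 2 other genes with no read in 1 group are left out. Circular ratios of the other genes run from -3.95 to 4.18 and linear ratios from -0.82 to 0.77, with Hipk2 at 2.30 on the circular axis.

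Single linear transcripts were tested in the same way. Of the 121 transcripts 112 could be tested, and none had an adjusted p below 0.05 in limma, against 0.0277% of all transcripts. An unadjusted p of at most 0.05 was found for 5 (4.46%, against 4.53% of all transcripts), and all 5 were lower in PF model rats. They were 4 transcripts of Arl15 and 1 of Mef2a.

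The annotated Arl15 transcript ENSRNOT00000071353 had 2.34, 2.77 and 1.70 FPKM in control and 1.41, 1.20 and 0.886 FPKM in PF model rats (unadjusted p 0.0236, limma). MSTRG.18867.1, a single-exon row within an Arl15 intron on the opposite strand, had 9.04, 6.51 and 6.31 FPKM against 1.79, 2.81 and 5.45 FPKM (p 0.0243), and it was the 1 transcript that passed the thresholds of the study, against 2.98% of all. The other Arl15 rows were MSTRG.18874.1 (p 0.0464) and MSTRG.18865.9 (p 0.0497), and that of Mef2a was MSTRG.2030.2 (p 0.0473). The groups did not overlap for 15 of the 112 (12 of them from Arl15), against 10.4% of all transcripts.

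The transcript with the most FPKM was a form of exons in 6 genes. It was MSTRG.7352.3 for App (136.6 FPKM, mean of 6 libraries), ENSRNOT00000048848 for Rbms2 (34.6), MSTRG.25605.1 for Hipk2 (16.1), ENSRNOT00000070864 for Mef2a (8.60), ENSRNOT00000039186 for Mettl9 (8.58) and ENSRNOT00000016224 for Tmem41b (4.37). In the other 4 genes it was an intronic row, MSTRG.18881.1 for Arl15 (11.1), MSTRG.18431.1 for Ssbp2 (3.78), MSTRG.8369.1 for Spidr (2.53) and MSTRG.22105.1 for Slc16a10 (2.18). These 4 are the genes whose ratio depended most on the rows counted.

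Whether the circular and linear output of a gene varied together over the 6 rats was examined next. Linear FPKM were not used directly in the choice of genes, but they come from the same libraries. The back-splice reads were used, and earlier results of these data were known, so the test is not independent of the choice. It was run for all 315 host genes with an exact permutation test over the 720 pairings, two-sided, of Pearson's r between scaled back-splice reads and gene FPKM. None of the 10 genes had an unadjusted p of at most 0.05, where 2.22% of all host genes did, and 0 of the 315 had an adjusted p below 0.05. The lowest adjusted p was 0.438, and the smallest p that the pairings can give is 0.00139, so 1 gene alone could not have reached a lower adjusted p and the absence of calls says little. Pearson's r was positive for 6 of the 10 genes (60.0%) and for 54.9% of all 315, but for 4 of the 10 (40.0%) and 58.4% of all when raw reads were set against coverage.

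At the lower end, Ssbp2 had r = -0.69 (exact permutation p = 0.126, adjusted p = 0.948) and a Spearman's rho of -0.89 (exact permutation p = 0.0333, adjusted p = 0.961). Without the 2 libraries farthest from its median FPKM, r was -0.83. At the upper end, App had r = 0.61 (exact permutation p = 0.226, adjusted p = 0.948) and rho = 0.20 (p = 0.714, exact permutation), and r was 0.81 without 2 libraries. Over exonic rows r was -0.23 for Ssbp2 and 0.62 for App, and rho of Ssbp2 was -0.14 (exact permutation p = 0.803). Over all rows rho had an unadjusted exact permutation p of at most 0.05 for 1 of the 10 genes and 10 of all 315. For Rbms2 r was -0.55 and became 0.17 without 2 libraries, so its sign rested on those.

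The profile of the ratio over the 6 libraries was compared with that of the 305 other host genes, as a description. The most alike were Dnmbp for Arl15 (r = 0.92), Akap2 for Spidr (0.97), Lmo7 for Slc16a10 (0.88), Flt1 for Ssbp2 (0.81) and Zmynd11 for Rbms2 (0.94). They were Pik3c2a for Mettl9 (0.95), Ubap2l for Mef2a (0.96), Srcap for Hipk2 (0.97), Tmeff1 for App (0.98) and Ubr2 for Tmem41b (0.96). Each is the highest of 305 values over 6 points, most from genes with few reads, and all points of a pair share their libraries.

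Proteins known to make, export or degrade circRNAs were measured through their linear RNA. Of 32 such factors 31 were found and tested, 14 higher and 17 lower in PF model rats by the sign of the fold change, and none had an adjusted p below 0.05 in limma (lowest 0.933). An unadjusted p of at most 0.05 was found for 3 of the 31, 1 higher and 2 lower, against 4.91% of all genes. The count fell to 1 by a length-weighted mean, after rescaling, or without Control 1, Control 2 or Model 3, and to 0 with the replicate number as a block. Ythdf2, a reader of m6A that can direct circRNAs to cleavage, had 13.7, 13.7 and 14.3 FPKM in control and 15.9, 16.8 and 16.4 FPKM in PF model rats (log2 fold change 0.22 ± 0.07 SE, p 0.0195, limma).

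Among the lower ones, Sf3b1, a core splicing factor of the U2 particle, had 32.3, 31.7 and 35.2 FPKM in control and 30.2, 27.7 and 25.5 FPKM in PF model rats (-0.24 ± 0.09 SE, p 0.0298, limma). By group, 15 factors that modulate back-splicing had a median log2 fold change of -0.03, 3 that oppose the pairing of repeats -0.01, 4 of debranching and export -0.08 and 9 of turnover 0.07.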

How the data were processed

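Lung RNA of 3 control and 3 PF model rats was analysed, grouped by the condition in the labels, and the rats were separate animals. Per the methods of the study, the reads were trimmed by Cutadapt and aligned by Bowtie2 and Tophat2, and the FPKM that the authors deposited per transcript come from StringTie and Ballgown. HISAT2, StringTie and TopHat are named in the submitters' processing notes. The authors also deposited the coverage of each transcript, a signal per base that is not scaled by library. Counts of back-splice reads were deposited by the authors from Tophat-fusion and CIRCExplorer, beside a signal (SRPBM) normalized by a total per sample. The genome build is not given in the sources used here.

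The members and gene lists were chosen with earlier results of these data known. Named genes were the 10 members with their leading circRNA, leading transcript and every transcript with an unadjusted p of at most 0.05, the 5 other hosts with most reads, the most alike host of each member, and the 3 factors with the smallest p, of which 1 is not reported here. Reads were scaled by each library's coverage per FPKM, relative to the mean of 6. Linear genes and transcripts above 0 FPKM in at least 3 samples were tested with limma 3.58.1 (trend, two-sided, Benjamini-Hochberg over all tested) on log2(FPKM + 1) in R 4.3.3, so fold changes of low genes are understated. Tests were checked on simulated data, where 189 of 200 genes changed by 2 log2 units were found among 19645, with 16 false calls. That change is far larger than the linear fold changes of the 10 members, so the check says nothing about changes of their size. Exact permutation of 3 against 3 rats cannot go below p = 0.1 and was not used. Floors of 3 reads cover only the counting error of a count of 0. Other pseudocounts, filters, row sets, scalings, a replicate block and leaving out each rat were tried. Markers were 34 genes of 10 tissue and cell lists, of which 30 were found; 1 had an unadjusted p of at most 0.05, and thymus markers were at or near 0. Scripts used Python 3.11.15 with scipy 1.17.1, numpy 2.4.6 and pandas 2.3.3.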

Additional observations from a re-analysis of the deposited data

How the results depend on the processing

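No member had an adjusted p below 0.05 under any alternative to the linear gene or transcript test, and the same held for the factors. For circular against linear output 1 gene alone could not pass in this design. Unadjusted, the count of members with p of at most 0.05 ran from 0 to 2, the latter over exonic rows. Scaled reads were higher in PF model rats for 4 to 7 of 10 members and the ratio for 4 to 7, where the lowest, over annotated transcripts, leaves out Ssbp2, whose annotated transcript is listed at 0 in Model 2 and Model 3. Over annotated transcripts the log2 ratio of circular to linear output was -2.08 for Slc16a10 against 0.60 over all rows, 4.52 for Hipk2 against 2.34, and 1.26 for App against 0.60. With the leading circRNA alone it was 0.11 for App. With the replicate number as a block, 0 members passed the adjusted threshold and 0 the unadjusted one. Samples of the same number correlated at 0.07, 0.03 and -0.09. Control 1 correlated at 0.0688 with Model 3 and at 0.0667 with Model 1. Values this near 0 do not show whether the numbers pair the samples, and the main test did not pair them.

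Small linear log2 fold changes changed sign, and the cause was not tested. Over annotated transcripts alone they were 0.74 for Slc16a10, -0.36 for Ssbp2, 0.0108 for Mef2a, -0.80 for App and -0.35 for Tmem41b, and by a length-weighted mean -0.0143 for Spidr and -0.00656 for Tmem41b. Leaving out 1 rat gave ranges of -0.0476 to 0.11 for Spidr, -0.25 to 0.0289 for Slc16a10, -0.0641 to 0.0756 for Ssbp2, -0.0731 to 0.13 for Rbms2, -0.25 to 0.00535 for Hipk2, -0.0107 to 0.19 for App and -0.19 to 0.15 for Tmem41b. Pearson's r of raw reads with coverage was -0.0174 for Arl15 and -0.25 for Slc16a10. Without the 2 libraries farthest from the median FPKM it was -0.71 for Slc16a10 and 0.17 for Rbms2, and Spearman's rho of Tmem41b was -0.0676. Reads of 0 to 21 per gene and library limit what differences can be seen.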
